A study of Mus musculus with 2 samples.

Results

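The regions described here are EP300 peaks at the start sites of noncoding RNA genes in the lung of newborn mice. They were 1334 of the 43296 peaks on chromosomes 1 to 19 in the authors' optimal set of reproducible peaks (3.08%, Wilson 95% interval 2.92 to 3.25%). A peak was included when its summit lay within 1 kb of a transcript start of a gene that GENCODE types as neither protein-coding nor pseudogene, and more than 1 kb from every start of a protein-coding gene. The choice used position alone and no signal value. A further 755 optimal peaks lay within 1 kb of starts of both kinds and were counted with the protein-coding starts. The optimal set then held 6699 peaks at protein-coding starts and 35263 peaks at neither kind of start.

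EP300-bound DNA was recovered with an antibody from lung tissue of mouse strain B6NCrl at postnatal day 0 and sequenced (ChIP-seq). There were 2 libraries and 1 group, and no treatment, mutant or other tissue was included. Although called biological replicates 1 and 2 in the labels, both trace to a single biosample and donor entry, and their spread may therefore be technical. With 2 libraries an exact sign-flip test cannot go below p = 0.5, so the differences below are set against the spread between libraries and no p-value is given.

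EP300 (p300) is a lysine acetyltransferase that transcription factors bring to active enhancers and promoters, where it acetylates histone H3 among other proteins. Noncoding RNA genes are of several kinds. Long noncoding RNAs are mostly transcribed by RNA polymerase II and often start close to, or antisense to, a protein-coding gene. Spliceosomal, nucleolar and other structured RNAs come from short genes that use specialised promoters or lie within the introns of host transcripts. MicroRNAs are cut from longer primary transcripts, and GENCODE places their gene start at the hairpin, so a distance to a miRNA gene is a distance to the hairpin and not to the promoter of its primary transcript.

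The strongest of these peaks are shown first by their sequence. Of the 10 with the highest signal, 4 held a full match to the glucocorticoid response element, the paired binding site of the glucocorticoid receptor, within 50 bp of the summit. Over all 1334 peaks 24 (1.80%) did. The 4 are printed on the plus strand of mm10, 100 bases each, with the match in capitals, and lie at chr7:63897016-63897115 in Gm27252, chr3:132940718-132940817 near Gm23196, chr16:25059344-25059443 upstream of A230028O05Rik and chr4:150825116-150825215 upstream of Gm13049.
Gm27252: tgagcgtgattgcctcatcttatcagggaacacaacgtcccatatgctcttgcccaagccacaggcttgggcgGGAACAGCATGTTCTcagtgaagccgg
Gm23196: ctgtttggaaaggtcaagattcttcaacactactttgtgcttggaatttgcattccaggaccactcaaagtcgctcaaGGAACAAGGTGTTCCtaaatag
A230028O05Rik: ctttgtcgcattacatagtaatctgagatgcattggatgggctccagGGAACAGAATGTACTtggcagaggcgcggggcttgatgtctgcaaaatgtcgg
Gm13049: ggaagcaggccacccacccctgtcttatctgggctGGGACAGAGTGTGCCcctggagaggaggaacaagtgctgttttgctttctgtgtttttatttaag

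A second group of sequences shows the starts of structured RNA genes, where the summit lay just before the start. Each runs 5′ to 3′ along the gene, with 100 bases before the start in lower case and the first 20 bases of the RNA in capitals. The mm10 positions are chr11:87422767-87422886 for Rnu1a1 (plus strand), chr4:132270194-132270313 for Rnu11 (minus strand), chr11:69073327-69073446 for Snord118 (plus strand) and chr9:78175614-78175733 for Rn7sk (minus strand). The summits lay 33 bp, 55 bp, 83 bp and 46 bp upstream of these starts.
Rnu1a1: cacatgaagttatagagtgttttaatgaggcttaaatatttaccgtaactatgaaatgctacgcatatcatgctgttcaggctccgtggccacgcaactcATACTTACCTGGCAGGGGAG
Rnu11: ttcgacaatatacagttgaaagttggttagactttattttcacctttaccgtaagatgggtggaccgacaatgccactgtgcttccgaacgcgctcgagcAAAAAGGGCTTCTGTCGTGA
Snord118: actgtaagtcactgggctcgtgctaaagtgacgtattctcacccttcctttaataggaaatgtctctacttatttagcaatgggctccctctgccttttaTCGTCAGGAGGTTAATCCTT
Rn7sk: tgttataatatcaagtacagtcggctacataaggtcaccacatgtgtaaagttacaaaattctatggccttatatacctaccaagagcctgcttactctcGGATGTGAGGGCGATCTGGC

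The third group gives mature miRNAs whose hairpins lay within 1 kb of a peak, from RefSeq on GRCm38, with the seed (bases 2 to 8) in capitals. Of 63 miRNA genes nearest to such a peak, 38 were matched in the RefSeq table, and no seed was shared between them.
mmu-miR-22-3p: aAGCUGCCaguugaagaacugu
mmu-miR-29a-3p: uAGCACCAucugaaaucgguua
mmu-miR-23a-3p: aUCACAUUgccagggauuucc
mmu-miR-30a-5p: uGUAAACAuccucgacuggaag

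The labelled tissue was checked by optimal peaks within 10 kb of the starts of marker genes. All 9 lung genes examined had at least 1 such peak, 53 in all, with 10 at Sftpc, the surfactant protein C gene of alveolar type II cells. Of 8 genes of other organs, 1 had any, with 2 peaks at Myog. The signal of a peak is the authors' own value and is used only to describe and rank peaks within a list. The peak lists gave no read counts, so the depth is unknown. To represent each library alone, its strongest 43988 peaks were taken, the number in the whole optimal set. By the same rule replicate 1 held 1337 such peaks of 43308 (3.09%) and replicate 2 held 1364 of 43311 (3.15%).

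Noncoding gene starts held more EP300 peaks than their length of sequence alone would give, and fewer than protein-coding starts. The sequence within 1 kb of noncoding starts and clear of protein-coding starts made up 1.40% of the chromosomes and held 3.08% of the peaks, a ratio of 2.20 in the optimal set, 2.21 in replicate 1 and 2.25 in replicate 2. The sequence within 1 kb of protein-coding starts made up 3.93% and held 15.5% of the peaks, a ratio of 3.93. Among pooled peaks that did not overlap the optimal set, 1.97% lay at noncoding starts.

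Counted by gene, 1073 of 16206 noncoding genes with a start clear of protein-coding starts had a peak there. This share of 6.62% (95% interval 6.25 to 7.01%) was 7.07% in replicate 1 and 7.004% in replicate 2 (mean 7.03% ± 0.0436, SD, n = 2). Among 20807 protein-coding genes 5085, or 24.4%, had a peak within 1 kb of a start. A gene was counted when any of its annotated starts had a peak. The sequence within 1 kb of starts was 94251582 bases for protein-coding genes and, clear of these, 33540286 bases for noncoding genes. The shares by gene do not allow for this, whereas the ratios by sequence, 3.93 and 2.20, do. The protein-coding share was taken from the optimal set alone, so the spread between libraries is known for the noncoding share only. The noncoding share in the optimal set lay below that of both libraries, so this SD does not cover the difference between sets.

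The types of noncoding gene differed among themselves. Long noncoding types together held 962 of the 1334 peaks (72.1%), of which 586 lay at lincRNA genes, transcribed between protein-coding genes, and 249 at antisense genes. By gene, processed_transcript genes, a class of long RNAs that includes many host genes of small RNAs, had the highest share among types with at least 10 peaks, with 81 of 515 genes (15.7%, 95% interval 12.8 to 19.1%, libraries 16.3% and 17.1%). Antisense genes followed with 184 of 1967 (9.35%) and lincRNA genes with 448 of 4867 (9.20%). These last shares differed by less than their intervals, which run from 8.15 to 10.7% for antisense and from 8.42 to 10.05% for lincRNA genes.

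Lower shares were found at TEC genes, which are loci still to be experimentally tested, and at small RNA genes. TEC genes had a peak in 165 of 2897 cases (5.70%), miRNA genes in 69 of 1717 (4.02%), snRNA genes in 35 of 1240 (2.82%) and snoRNA genes in 25 of 1293 (1.93%). All small and structured types together reached 172 of 5116 genes (3.36%, libraries 3.48% and 3.38%), against 730 of 7699 (9.48%, libraries 10.1% and 10.1%) for all long noncoding types. The difference between these groups was larger than the spread between libraries. The number of annotated starts per gene was not taken into account in any share by type. Reads from near-identical gene copies may be placed at the wrong copy or left out. In a split made after the values were seen, 31 of 1231 snRNA genes with a numbered Gm symbol had a peak (2.52%), against 4 of 9 with another symbol, all of them Rnu symbols. The numbered genes also had the lower share among snoRNA genes (1.34% against 9.09%), miRNA genes (2.97% against 5.03%), lincRNA genes (8.43% against 11.0%) and antisense genes (8.37% against 11.4%). The part of read placement in these shares was not tested.

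**Figure D1:**
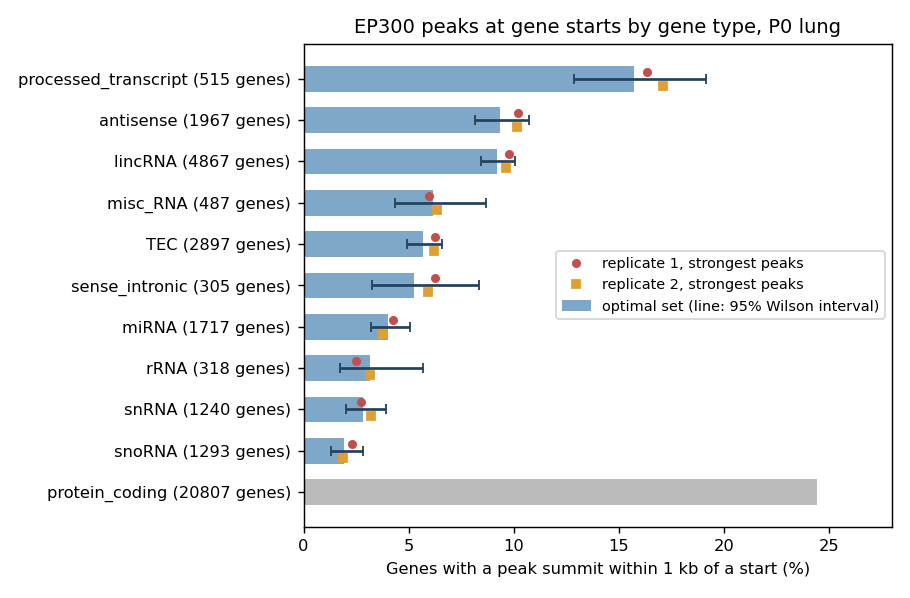
Percent of genes of each noncoding type (only types with at least 10 peaks) with an EP300 summit within 1 kb of a start, with protein-coding genes in the lowest row. Bars are the optimal set with Wilson 95% intervals as lines (none drawn for protein-coding genes), and points are the strongest peaks of each library; processed_transcript genes reach 15.7% and snoRNA genes 1.93%.

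The peaks were concentrated just upstream of the starts. Of the 1334, 275 (20.6%) had the summit within 100 bp of the nearest noncoding start, 559 (41.9%) within 250 bp and 840 (63.0%) within 500 bp, with a median distance of 353.5 bp. The 250 bp before the start held 351 summits (26.3%) and the 250 bp after it 208 (15.6%), while each of the other bins of 250 bp held 8.40 to 10.7%. Replicate 1 had 43.1% and replicate 2 40.8% of its summits within 250 bp. Pooled peaks at noncoding starts outside the optimal set were spread more evenly, with 28.3% within 250 bp.

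Position differed between types. Long noncoding types had 45.7% of summits within 250 bp, small and structured RNAs 37.7% and TEC genes 26.4%, close to the 28.3% of the pooled peaks left out of the optimal set. Peaks at protein-coding starts were closer still, with 55.7% within 250 bp and 66.6% upstream, against 54.2% upstream for the noncoding starts. The optimal peaks come in nearly fixed widths, with 96.3% of these 1334 at 424 bp, so a distance of a few bp cannot be read closely.

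**Figure D2:**
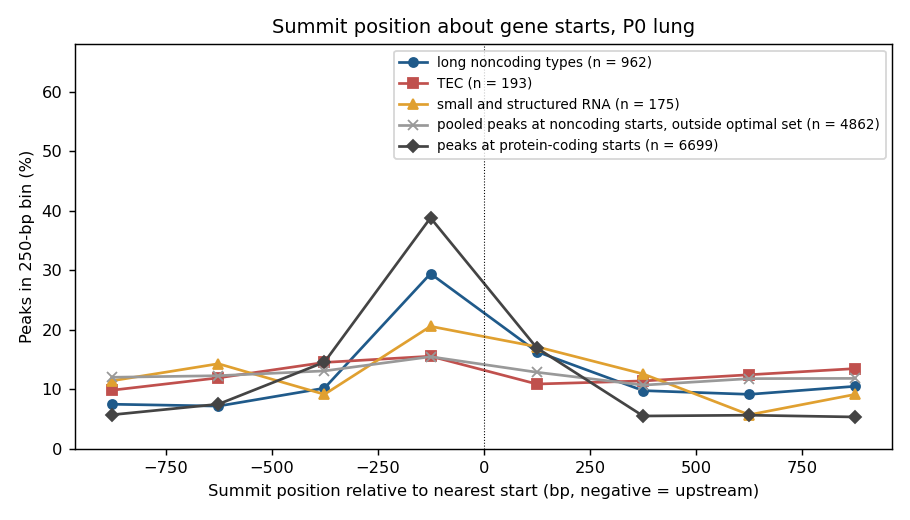
Percent of peak summits in each bin of 250 bp about the nearest noncoding start, or nearest protein-coding start for the dark diamonds, with negative distances upstream. Long noncoding types have 29.4% of summits in the bin just upstream of the start and peaks at protein-coding starts 38.8%, while TEC genes run close to the pooled peaks outside the optimal set.

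The share of pooled peaks retained in the optimal set was higher nearer the start. Of 6394 pooled peaks at noncoding starts, 1532 overlapped an optimal peak (24.0%, 95% interval 22.9 to 25.02%), against 27.5% at protein-coding starts, 15.3% elsewhere and 16.7% of all pooled peaks. The share was 33.6% for summits within 100 bp of a noncoding start, 29.2% from there to 250 bp, 22.6% from 250 to 500 bp and 19.7% beyond. At protein-coding starts the same distances gave 42.4%, 35.6%, 24.5% and 17.7%. By type, the share was 28.3% at lincRNA, 27.3% at processed_transcript, 25.8% at antisense, 19.5% at TEC, 19.3% at miRNA, 17.8% at snRNA and 10.8% at snoRNA genes.

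Of the 1334 peaks, 846 (63.4%) had a summit within 100 bp in the strongest peaks of both libraries, 368 in 1 library and 120 in neither. Among those within 500 bp of a start the share with both was 62.9%, so this measure was not higher near the start. The share with both was 54.3% for peaks at protein-coding starts and 64.7% for peaks elsewhere. The full lists of 300000 peaks gave a value in both libraries for 1127 of the 1334. Replicate 1 values were generally the higher, by a median of 0.40 on the log2 scale, which was also 0.40 for the other optimal peaks, and 89.1% lay within 2-fold of that median ratio.

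Signal at noncoding starts was close to that of other peaks. The median was 51.8 (quartiles 34.8 and 82.1, range 10.1 to 526.6), against 45.3 at protein-coding starts and 49.2 elsewhere. The median exceeded that of all other optimal peaks by 0.095 on the log2 scale, by 0.071 in replicate 1 and by 0.088 in replicate 2 (mean 0.080 ± 0.012, SD, n = 2 libraries). Noncoding starts made up 3.86% of the strongest 10% of the optimal set and 3.30% of the weakest 10%, whereas protein-coding starts made up 10.3% and 21.1%. By type, medians ran from 39.7 at rRNA genes to 53.7 at antisense genes among types with at least 10 peaks, apart from 87.8 at the 17 peaks of sense_intronic genes, whose quartiles of 42.7 and 102 overlap the rest.

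The strongest peak lay 533 bp downstream of a start of Gm27252, inside Klf13, a Krüppel-like transcription factor gene, and ranked 5 in the whole optimal set. Its signal was 526.6 in the pooled list, 277.7 in replicate 1 and 249.3 in replicate 2. The next lay 898 bp from Gm23196, an snRNA gene within Npnt, which encodes the basement membrane protein nephronectin, with 511.6, and 280.7 and 232.9 in the libraries. A230028O05Rik, a lincRNA 214 kb from the nearest protein-coding start at Lpp, had 422.5, with 217.3 and 202.7 in the libraries. Both libraries placed these 3 peaks above 200, and all 3 held a full glucocorticoid response element as printed above.

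The remaining 7 of the top 10 had signals between 331.3 and 412.8. Gm12610 (412.8, libraries 224.9 and 183.8) lay 111 kb from Cdkn2b, a cyclin-dependent kinase inhibitor gene, and 2310039L15Rik (396.4, libraries 234.7 and 165.0) lay 31.5 kb from Socs2, a suppressor of cytokine signalling. AC138228.3 (381.7) lay 56.7 kb from the kinase gene Sik1, Gm13049 (367.6, libraries 210.4 and 167.4) 28.8 kb from Errfi1, which encodes an inhibitor of ErbB receptors, and AC122818.3 (351.5) 26.2 kb from the calmodulin gene Calm2. Gm44860 (333.5) and the rRNA gene n-R5s193 (331.3) had the lowest signals of the 10. At all 10 the summits were 153 to 898 bp from the start, and a neighbouring gene is given as an annotation, not as a measured target.

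**Figure D3:**
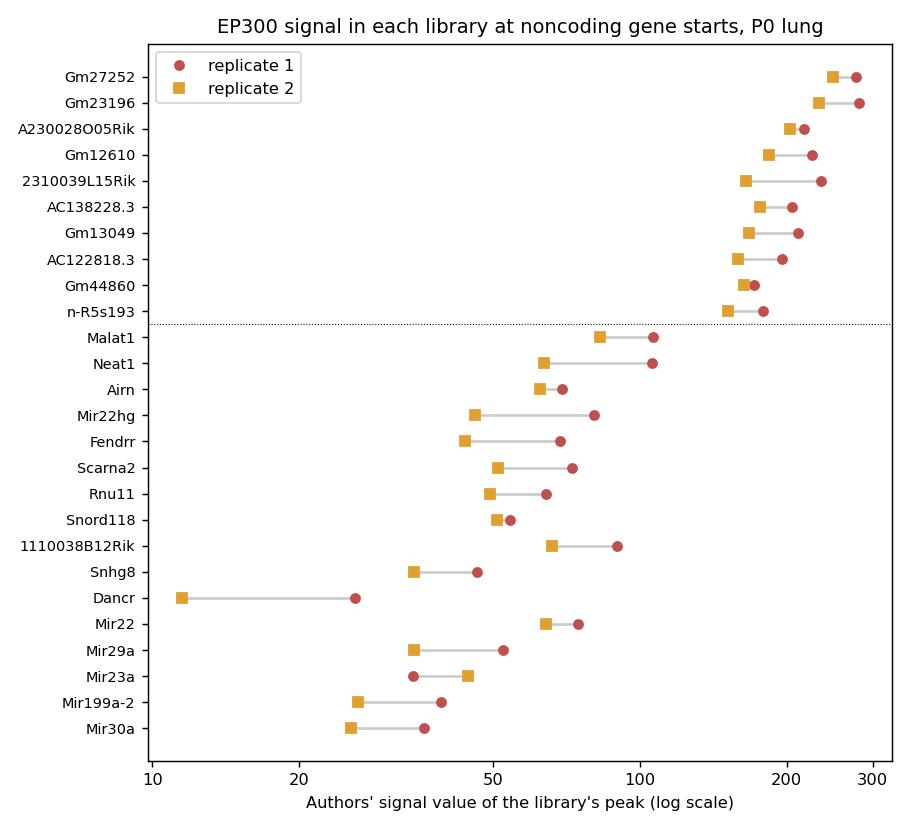
Authors' signal value of the library's own peak (log axis) in replicate 1 and replicate 2 at the strongest peak of each gene, for the 10 strongest peaks (above the dotted line) and for 16 genes from the lists described in the text. The top 10 lie between 151.5 and 280.7 in both libraries, and Dancr has the widest gap of those shown, with 26.0 in replicate 1 and 11.5 in replicate 2.

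The lists of genes used here and below were chosen with earlier results of these data known. Their shares describe the listed genes and are not a test of an excess over the background. The first list held well-studied long noncoding RNA genes. Of 34 in a list of such genes on these chromosomes, 11 (32.4%) had at least 1 of the 1334 peaks and 12 (35.3%) had any optimal peak within 1 kb of a start, where the backgrounds over all 18828 noncoding genes are 5.92% and 9.05%. Among all long noncoding genes with a start clear of protein-coding starts, 9.48% had at least 1 of the 1334. The 11 include Mir22hg, which has no start clear of protein-coding starts. Malat1, the abundant RNA of nuclear speckles, had 3 peaks, with signals of 190.2, 131.7 and 53.9 at 989, 72 and 274 bp upstream of starts. Its strongest peak had 106.2 in replicate 1 and 82.9 in replicate 2. Neat1, the scaffold RNA of paraspeckles, had 5 peaks within 1 kb of its starts, the strongest with 171.0 (libraries 106.0 and 63.7). That peak lies 194 bp from a start of Neat1 but 49 bp from a start of Frmd8os, to which it is assigned as the nearest. Neat1 was the nearest gene for 2 peaks, the stronger with 48.7 (28.6 and 19.4). Both libraries had a peak at each of these strongest positions.

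Fendrr, which is transcribed away from Foxf1 and is needed for heart and lung development in mice, had 1 peak 165 bp upstream of a start and 1.11 kb from the start of Foxf1, a transcription factor gene of lung mesenchyme. Its signal was 111.6, with 68.5 in replicate 1 and 43.8 in replicate 2. Airn, the imprinted RNA that silences Igf2r in cis, had 127.3 (69.1 and 62.3). Mir22hg, the host of Mir22, had 123.9 (80.5 and 45.9), and Mir99ahg, which hosts a let-7 family cluster, had 98.2 (52.1 and 45.6).

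Dnm3os, the antisense host transcript of Mir199a-2 expressed in mesenchyme, had 2 peaks, the stronger with 66.0 (39.0 and 26.4). Lncpint, a p53-regulated RNA, Carmn, an RNA of smooth muscle, Mir17hg, the host of a proliferation-linked miRNA cluster, and Pvt1, a neighbour of Myc, had lower signals of 42.7, 41.1, 30.3 and 29.2. In all 4 both libraries had a peak, and all lay below the median of 51.8 over the noncoding starts. The genes of this list described beyond the 5 of highest signal were named after their values were seen.

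Genes for structured RNAs with a known function formed a list of 27. Among all small and structured RNA genes with a start clear of protein-coding starts, 3.36% had at least 1 of the 1334 peaks. Over all noncoding genes 5.92% had at least 1 of them and 9.05% any optimal peak. Of the 27 listed, 9 (33.3%) had at least 1 of the 1334 and 15 (55.6%) had any optimal peak. The other 6 genes had their peak within 1 kb of a protein-coding start as well, among them Rnu12, the U12 snRNA of the minor spliceosome (103.0), and Rmrp, the RNA of RNase MRP (77.0). Rnu1a1, a gene for U1 snRNA of the major spliceosome, whose start is printed above, was not in this list. It had peaks of 151.1 (87.4 and 59.8) and 128.3 (84.2 and 45.0) at 33 bp upstream and 183 bp downstream. Within the list, Rnu11, the U11 snRNA of the minor spliceosome, had 117.1 (64.2 and 49.2). Snord118, the U8 RNA needed for processing of ribosomal RNA, had 98.4 (54.2 and 50.9), and Scarna2, a guide RNA of Cajal bodies, had 120.3 (72.5 and 51.2) at 111 bp upstream.

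Rn7sk, Rny1 and Rny3 had signals nearer the median of 51.8. Signals below that median were also found in the same list at Rn7s2 (45.6), Rnu2-10 (43.3) and Rnu3b1 (33.1). Whether signal differed between kinds of structured RNA, or by the polymerase that transcribes them, was not tested. Rn7sk, the RNA that holds the elongation factor P-TEFb inactive, had 40.5, with 12.6 in replicate 1 and 26.0 in replicate 2, the reverse order to most of the peaks above. Rny1, a Y RNA bound by Ro60, had 56.3, with a summit within 100 bp in replicate 2 (27.6) and none in replicate 1. Rny3 had 47.3 at its stronger peak, with a summit within 100 bp in neither library, and its other peak, 253 bp downstream of the start with 16.7, had one in both (12.9 and 32.8). Over all 1334 peaks, 187 had a partner of this kind in 1 of the full library lists and 20 in neither.

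A list of 21 genes made for hosts of snoRNAs also held Mir17hg, the miRNA host already counted with the long noncoding genes. Of the 21, 7 (33.3%, Mir17hg among them) had at least 1 of the 1334 peaks and 11 (52.4%) any optimal peak. These shares were 5.92% and 9.05% over all noncoding genes. Among processed_transcript genes with a start clear of protein-coding starts, 15.7% had at least 1 of the 1334. Listed genes with only other optimal peaks had them at a protein-coding start. The strongest was 1110038B12Rik with 158.9 (89.5 and 66.0), 135 bp upstream of a start and 6.63 kb from the heat-shock gene Hspa1b. Snhg8 had 79.8 (46.4 and 34.4). The rest were lower, with Dancr at 47.3 (26.0 and 11.5), Snhg5 at 44.7, Snhg17 at 39.2, Mir17hg at 30.3 and Snhg15 at 27.4. The pooled signals in this list thus spanned both sides of the median of 51.8.

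At miRNA genes the listed share was lower than in the lists above, but so was the share over the type. Of all miRNA genes with a start clear of protein-coding starts, 4.02% had at least 1 of the 1334 peaks. Of 84 miRNA genes in a list for lung and blood vessel, 9 (10.7%) had 1 of the 1334 peaks and 11 (13.1%) any optimal peak, against 5.92% and 9.05% of all noncoding genes, and 3 of the 9, Mir23a, Mir27a and Mir24-2, shared a single peak. Mir22 had the strongest, 136.6 (74.6 and 64.1), 529 bp before the hairpin. Mir29a, known for repressing collagen and other matrix genes, had 89.1 (52.4 and 34.4), and the peak of the Mir23a cluster, at 550 bp before its first hairpin, had 79.0 (34.3 and 44.5). Mir30a had 63.9 (36.1 and 25.5). Mir210, known for its induction by low oxygen, had 32.7, with 24.0 in replicate 1 and no summit within 100 bp in replicate 2.

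Further miRNA genes outside that list had peaks of similar strength. The highest at any miRNA gene was 160.5 (106.5 and 53.0) at Mir7212, within the gene Retreg1, followed by 145.8 at Gm44467. Mir7681, Mir378c and Mir3109 had 117.0, 113.7 and 101.2 and lay within Hecw2, Samd4 and Anxa2. In all, 36 of the 74 peaks at miRNA genes (48.6%) lay inside a protein-coding gene. Among all noncoding genes, 5.92% had at least 1 of the peaks at noncoding starts and 9.05% had any optimal peak. Of 34 noncoding genes typical of other tissues, 1 (2.94%) had a peak by either count. This is too few to place the share of the list below or above that of all noncoding genes. The gene was Mir150, a miRNA of mature lymphocytes, with 80.2 (39.8 and 37.4). Whole lung contains lymphocytes, and fewer cells of a type and less binding per cell cannot be told apart in whole tissue.

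Most genes had a single peak. The 1334 peaks had 1051 nearest genes, of which 812 had 1 peak, 205 had 2, 27 had 3, 6 had 4 and 1 had 7. The gene with 7 was Junos, antisense to the AP-1 gene Jun, whose several annotated starts had peaks with signals from 10.9 to 100.3. Its strongest peak (63.9 and 36.5 in the libraries) lay 159 bp downstream of a start and 1.18 kb from the start of Jun. Frmd8os, Gm29328, 1700054A03Rik and AI480526 had 4 each, with strongest signals of 171.0, 166.9, 122.2 and 76.2. Overlap between neighbouring peaks was common, with 333 of the 1334 (24.96%) overlapping another optimal peak, and merging left 1162 regions. Overlap was not particular to these peaks, as merging the whole optimal set took 43296 peaks to 38884 regions.

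The genomic surroundings followed the gene types. Summits lay a median of 26.0 kb from the closest protein-coding start, against 22.3 kb for the 35263 peaks at neither kind of start. It was 47.2 kb at lincRNA, 10.3 kb at antisense, 12.95 kb at miRNA and 6.24 kb at snRNA genes. Of the 1334 summits, 414 (31.0%) were inside a protein-coding gene. Of the 249 at antisense genes 173 were, 170 of them in a gene on the opposite strand alone, as the type name implies, whereas 22 of the 586 at lincRNA genes were.

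The DNA under these peaks lay between that of promoters and that of distal peaks in CpG content. Distal here means all peaks at neither kind of start, of which 17.3% lay within 5 kb of a protein-coding start. In the 100 bp about the summit the CpG count was 0.353 of that expected from base composition, against 0.562 at protein-coding starts and 0.246 in peaks at neither start. In the libraries it was 0.338 and 0.336 at noncoding starts (mean 0.337 ± 0.0017, SD, n = 2), 0.578 and 0.554 at protein-coding starts and 0.248 and 0.245 elsewhere. The differences were far larger than the spread between libraries. Within 250 bp of a noncoding start the ratio was 0.377, beyond it 0.335, and in the windows 500 bp to either side 0.307. The median GC content was 48%, against 52% at protein-coding starts and 46% elsewhere, and 36 peaks (2.70%) had over 65% GC, against 8.97% at protein-coding starts.

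Known binding sequences were searched on both strands in the same 100 bp, with windows 500 bp to either side as the local background. Sequences of enhancer-binding factors had shares close to those in distal peaks. The TEAD sequence GGAATG was in 12.7% of the 1334 windows, against 5.55% of the flanking windows, 7.40% of those at protein-coding starts and 12.4% elsewhere. The ERG-type ETS sequence CAGGAAG was in 11.7%, against 4.35%, 7.58% and 10.9%, but in the libraries it was in 11.0% and 10.2%, below the 11.3% and 10.6% elsewhere. The AP-1 sequence TGANTCA was in 7.42%, against 3.19%, 4.76% and 8.23%, and the FOX sequence TGTTTAC in 4.95%, against 1.09%, 3.40% and 5.69%. The GATA sequence AGATAAG was in 3.15%, against 3.51% elsewhere, and the NKX2 sequence TCAAGTG in 3.07%, against 3.38%. In both libraries the FOX, GATA, NKX2, AP-1, C/EBP and SOX sequences were each rarer than in distal peaks, with AP-1 at 8.08% and 5.72%, against 8.54% and 7.79% elsewhere.

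Of the sequences typical of CpG-rich promoters, SP/KLF and promoter-type ETS had shares between those of distal peaks and of protein-coding starts. The SP/KLF sequence GGGCGGG was in 3.37% of the windows, against 2.44% of the flanks, 8.70% at protein-coding starts and 1.28% elsewhere. In the libraries it was in 3.44% and 3.08% of the windows at noncoding starts, against 9.47% and 7.51% at protein-coding starts and 1.36% and 1.27% elsewhere. The promoter-type ETS sequence CCGGAAG was in 2.62%, against 0.862% of the flanks, 6.15% at protein-coding starts and 1.38% elsewhere. The NFY sequence CCAATCA was in 0.900%, against 0.825% of the flanks, 2.46% at protein-coding starts and 0.817% elsewhere, and in the libraries it was in 0.748% and 0.806%, against 0.795% and 0.834% elsewhere. The gaps between classes for SP/KLF exceeded the SD between libraries, which was 0.256 for noncoding starts, 1.39 for protein-coding starts and 0.0593 elsewhere.

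**Figure D4:**
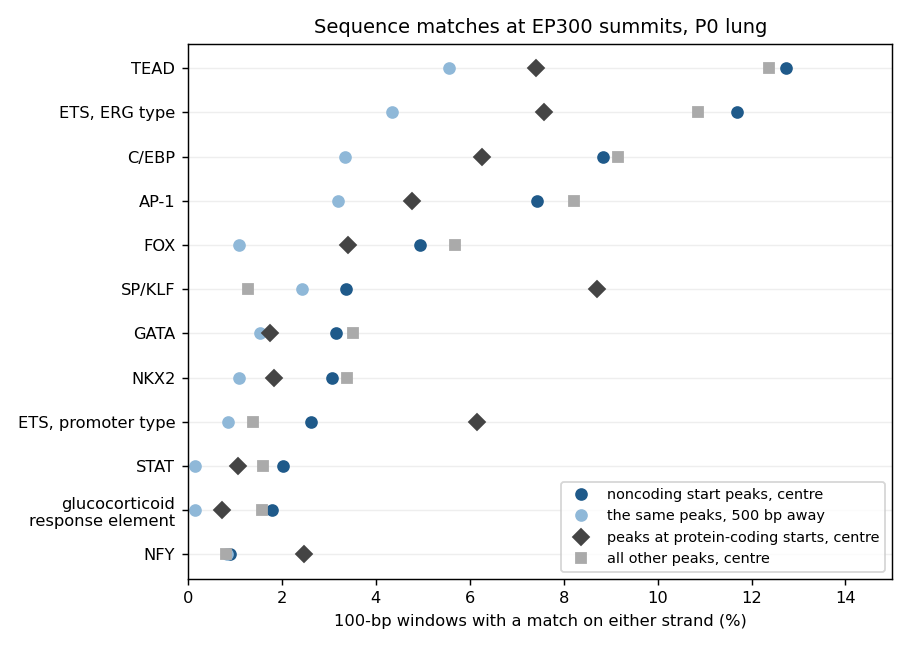
Percent of 100-bp windows with a match on either strand for 12 of the sequences searched, at the summits of peaks at noncoding starts, 500 bp to either side of the same peaks, at protein-coding starts and at all other peaks. TEAD and ERG-type ETS sequences lie near all other peaks, and SP/KLF and promoter-type ETS sequences lie between all other peaks and protein-coding starts.

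The full glucocorticoid response element was in 24 of the 1334 windows (1.80%), against 0.150% of the flanking windows, 0.717% at protein-coding starts and 1.57% elsewhere. The libraries gave 1.87% and 1.61% at noncoding starts, against 0.769% and 0.614% at protein-coding starts and 1.59% and 1.43% elsewhere. The 95% interval of the full element at noncoding starts, 1.21 to 2.66%, covers the share elsewhere. In windows of 200 bp the order was reversed, with 1.87% against 1.93% elsewhere. The core of the element, ACANNNTGT, was in 6.82% at noncoding starts (95% interval 5.59 to 8.30%). It was in 2.74% of the flanks, 4.001% at protein-coding starts and 7.67% elsewhere. The libraries gave 7.48% and 7.04%, against 7.79% and 7.33% elsewhere. Neither form was thus set apart from distal peaks by these shares. The full element was found in 7 of the strongest 100 peaks (7%, 95% interval 3.43 to 13.7%), in 13 of the next 400 (3.25%) and in 4 of the remaining 834 (0.480%). The TEAD sequence also fell with signal, from 26% to 13.75% and 10.7%, whereas AP-1 gave 8%, 7.25% and 7.43%. These shares by strength are given for noncoding starts only. The STAT sequence TTCCNGGAA was in 2.02%, against 0.150% of the flanks, 1.06% at protein-coding starts and 1.61% elsewhere. A CTCF match was in 9 windows (0.675%), among them that of Scarna2, and the NRF1 sequence GCGCATGCG was in 0 of the 1334 windows and in 1 window of each library. A match describes the letters in the window and not binding by the factor.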

How the data were processed

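The 2 libraries of EP300 ChIP-seq from newborn lung were each represented by a list of 300000 peaks. The authors used mm10, called peaks per library and on both pooled, and made optimal and conservative sets by the irreproducible discovery rate, per the deposited notes. Aligner and peak caller: not given in the sources used here. Each peak carries a signal value from the authors, whose scaling is not stated.

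Starts were those of every transcript in GENCODE vM21 on GRCm38.p6. Summits were assigned to the nearest noncoding start, and T-cell receptor segments (4 peaks), which meet the rule as written, were kept. A library's value is its peak with a summit within 100 bp. Distinct classes were described by shares with Wilson 95% intervals, which cover counting error only. Members and gene lists were chosen with earlier results of these data known. Named genes were those of the 10 strongest peaks, the 3 strongest of each type with at least 10 peaks and 1 of other types, the 5 with most peaks, up to 15 miRNA genes and up to 5 of each list by signal. Start assignment and sequence matching were checked on simulated data. Python 3.11.15 with numpy 2.4.6, pandas 2.3.3 and scipy 1.17.1 was used. Alternatives covered distances, sets, windows, types and single libraries.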

Additional observations from a re-analysis of the deposited data

Results flagged for a closer look

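The X chromosome was outside the counts above. By the same rule it held 20 peaks at noncoding starts among 676 optimal peaks (2.96%), against 3.08% on chromosomes 1 to 19, and is listed here because no comparison above used it. The strongest had a signal of 76.4 at 5530601H04Rik. Ftx, a long noncoding RNA gene of the X-inactivation centre, was among the genes with a peak. The labels give no sex for the tissue.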

How the results depend on the processing

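Of 114 recomputed values, 90 stayed within the tolerance of their result and 24 did not. Most are counts or shares, which have no direction, and the log2 difference in signal stayed positive throughout. The tolerance was 1.5-fold for counts, as wide as 18 against 27 peaks at snoRNA genes, and for other values the spread between libraries or the 95% interval, which can be narrow. The number of peaks at noncoding starts was 840 with a distance of 500 bp, 2273 with 2 kb and 719 in the stronger 50% of the set. Genes with a peak numbered 663 in that stronger set and 3858 with pooled peaks outside the optimal set, an alternative chosen after seeing the data. The share of pooled peaks kept was 27.5% at 500 bp. The log2 difference in signal was 0.076 at 500 bp, 0.058 in the conservative set and 0.11 for long noncoding types. The share with a summit in both libraries was 50.1% at 50 bp and 77.4% with any overlap. The CpG ratio was 0.351 in 200 bp, 0.340 in the conservative set and 0.343 in the stronger peaks. The glucocorticoid response element was in 2.92% of the stronger peaks, and the SP/KLF sequence in 6.67% of windows of 200 bp. Some comparisons with peaks at neither start reversed in windows of 200 bp. There the full glucocorticoid response element was in 1.87%, against 1.93% elsewhere. The TEAD sequence was in 20.2%, against 20.4%, and the ERG-type ETS sequence in 17.4%, against 17.6%. Leaving out either library gave 1337 to 1364 peaks, a log2 difference of 0.071 to 0.088, a GC content of 48 to 49%, a CpG ratio of 0.336 to 0.338, and shares of 1.61 to 1.87% for the glucocorticoid response element and 3.08 to 3.44% for SP/KLF. The cause of these shifts was not tested, apart from the distances, windows and sets that hold fewer or more peaks by construction. No paired analysis was possible because the 2 libraries form 1 group. Depth is unknown, so an absent peak cannot be read as absence of EP300.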

Other observations

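Several protein-coding genes were the nearest neighbour of many of these peaks, a count inspected after the values were seen. Ly86 was nearest to 12 peaks at 8 noncoding genes, with a highest signal of 115.6. Dusp6, which encodes a phosphatase of the ERK kinases, was nearest to 9 peaks at 6 noncoding genes, with a highest signal of 164.5. Jun was nearest to 9 at 3 noncoding genes, including the 7 at Junos. Zmiz1 was nearest to 8 at 2 noncoding genes, Calm2 to 7 at 3, and Hes1, a Notch target gene, to 5 at 3. Nearness was not tested against the length of the intervals between genes.

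The 4 peaks at T-cell receptor segments had signals from a low of 25.9 to a high of 51.3. Immunoglobulin variable segments had a peak in 0 of 218 genes, where the Wilson interval reaches 1.73%.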
